A study of Mus musculus with 23 samples.

Results

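The 51 genes described here encode the presynaptic machinery of neurotransmitter release: synaptotagmins and Doc2 proteins, SNARE proteins and their regulators, Munc13 priming factors, active zone scaffolds, Rab3 GTPases with an effector, and integral or peripheral vesicle proteins. The rule took them by function from a list of symbols, with earlier results of these data known. All 51 were found among the 45706 genes of the count table, and all 51 passed the filter on low counts, which kept 18823 genes. The series measured polyadenylated RNA of mouse hippocampus in 23 libraries from 3 neuron populations, to compare controls with animals that carry a conditional deletion of Slm2 (Khdrbs3), an RNA-binding splicing regulator. The labels call CamK and Grik libraries excitatory pyramidal cells and SST libraries somatostatin-positive interneurons, and the series text places the excitatory populations in CA1 and CA3. There were 4 CamK WT, 3 CamK cKO, 4 Grik WT, 4 Grik cKO, 4 SST WT and 4 SST cKO libraries. WT and cKO are genotypes at SLM2 in the labels. Strain, age, sex, the Cre drivers, the deleted exons and the way the cells were isolated are not given in the sources used here, nor whether the libraries of a group came from separate animals. The p-values therefore measure the spread between these samples, which may be technical.

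Gene totals ranged from 87612006 to 112993538 reads per library, and the 51 genes took 2.10% to 2.93% of them. CA1 markers (Wfs1, Fibcd1 and Pou3f1) summed to 751 ± 131 CPM (counts per 1000000 gene reads, scaled by TMM; SD, n = 4) in CamK WT and 53.9 ± 7.11 in Grik WT, and CA3 markers (Grik4, Bok and Cdh24) to 80.1 ± 6.97 and 361 ± 38.5. Dentate markers (Prox1, C1ql2 and Dsp) summed to 97.9 to 259 CPM over the CamK WT libraries, 139.9 to 149.7 over Grik WT and 27.6 to 38.8 over SST WT. The GABA synthesis gene Gad1 averaged 63.6, 52.4 and 2764 CPM in CamK, Grik and SST WT, and the glutamate transporter gene Slc17a7 955, 1565 and 83.3. The sum of 20 non-neuronal markers spanned 279 to 510 CPM over the CamK libraries, 1294 to 1685 CPM over Grik and 372 to 1351 CPM over SST. Sst itself ranged from 159 to 1720 CPM among the SST WT libraries. Of 5 other interneuron markers, Pvalb averaged 1.05, 1.05 and 140 CPM in CamK, Grik and SST WT, and Vip 0.348, 10.5 and 0.610. In the same order Lamp5 averaged 41.7, 32.7 and 9.18 CPM, Cck 365, 299 and 15.3, and Cnr1 65.7, 135 and 95.1. Khdrbs3, the targeted gene, was at 356 to 413 CPM in CamK WT against 249 to 294 in CamK cKO and at 123 to 140 in SST WT against 82.6 to 106 in SST cKO, but at 327 to 347 in Grik WT against 396 to 439 in the libraries labelled Grik cKO. The Grik genotype label is therefore carried below only as a label.

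Release of transmitter depends on vesicles that are clustered by synapsins, tethered at the active zone by Rab3 and RIM proteins, primed by Munc13, and fused by the SNARE complex of syntaxin, SNAP-25 and synaptobrevin. Synaptotagmins sense the calcium that enters with an action potential, and complexins both clamp and promote SNARE-driven fusion. Most of these proteins belong to small families whose members differ between fast and slow, and between excitatory and inhibitory, synapses. Whether the RNA came from whole neurons or from a part of them is not given in the sources used here. In bulk samples fewer cells of a type and less RNA per cell cannot be told apart.

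Between WT populations most of the 51 genes differed. Of the 51, 42 passed the test between CamK and Grik (15 higher and 27 lower in CamK), 40 between CamK and SST (22 higher and 18 lower in CamK) and 44 between Grik and SST (28 higher and 16 lower in Grik). The test was edgeR's quasi-likelihood test with Benjamini-Hochberg adjustment over all 18823 genes at 0.05. Among all genes the shares that passed were 42.0% (20.9% higher and 21.1% lower), 60.1% (29.5% and 30.5%) and 57.3% (28.1% and 29.2%). At 2-fold or more, 13, 20 and 22 of the 51 genes passed, beside 14.7%, 27.7% and 26.3% of all genes. The median absolute log2 fold change of the 51 was 0.66, 0.71 and 0.83, beside 0.34, 0.54 and 0.51 over all genes. The fit was repeated with the mean log2 CPM of the 20 non-neuronal markers as a covariate. Between CamK and Grik 11 calls were lost (Syt1, Syt3, Syt6, Doc2a, Syt11, Stxbp5l, Rimbp2, Pclo, Rab3c, Syp and Sv2b). Between CamK and SST 5 were lost (Syt13, Nsf, Unc13a, Unc13b and Pclo). Syt7 (CamK against Grik) and Syn1 (CamK against SST) changed sign. The summed markers separate CamK from Grik and overlap between CamK and SST, but the sum is not the covariate. In CamK WT Slc1a2 was at 141% of its SST WT level, Mbp at 61.3% and each other marker at a lower percentage. All 3 comparisons passed for 29 of the 51 genes (20.8% of all genes), and none passed for Vamp2 and Syt4 (24.4% of all genes) in WT, although Syt4 passed between Grik and SST without SST WT 5 (0.26, adjusted p = 0.0379). The highest group mean was in Grik for 23 genes, in CamK for 14 and in SST for 14. The same split over all genes was not computed, and shares for genes whose highest group passed over both others are given below. Over all 23 libraries, WT and cKO, the first principal component of the 51 log-scaled genes held 73.6% of their variance. It separated SST (6.28 to 7.56) from the pyramidal libraries (-6.22 to -1.25). The second component, with 21.5%, separated CamK (-4.59 to -3.87) from Grik (1.67 to 3.82).

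**Figure D1:**
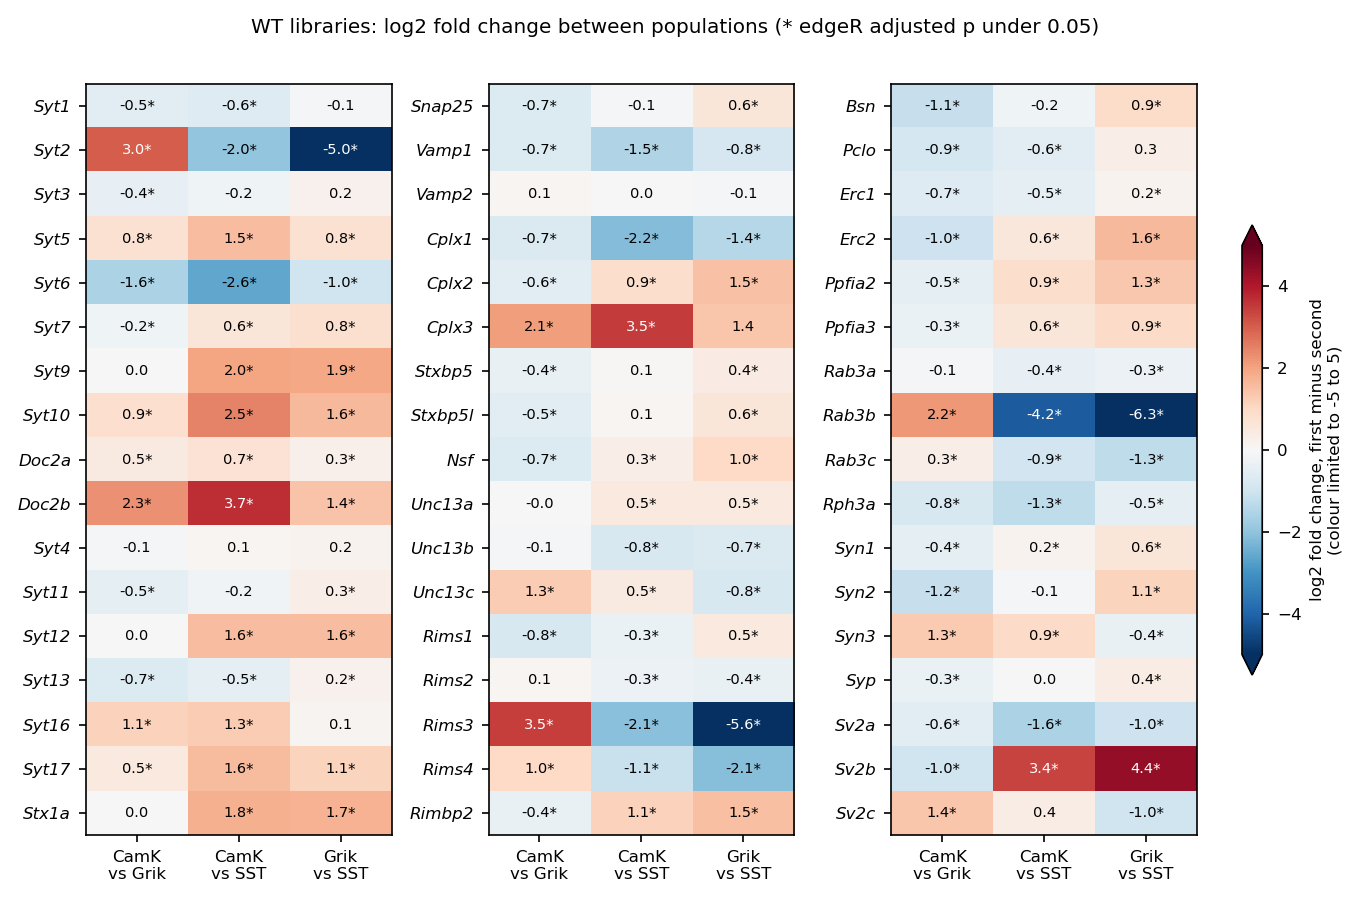
Log2 fold changes of the 51 genes between WT populations, 1 row per gene and 1 column per comparison, with an asterisk where edgeR's adjusted p was under 0.05. Red marks a higher level in the population named first and blue a lower one. Rab3b, Rims3 and Syt2 have the deepest blue in Grik against SST and Sv2b the deepest red.

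Levels per kilobase of exon allow genes to be compared with each other. In CamK WT Vamp2 (501 CPM per kb), Snap25 (485) and Cplx2 (414) led. Grik WT was led by Snap25 (778), Cplx2 (614) and Vamp2 (468). In SST WT Cplx1 (1182) stood over Rab3a (516) and Snap25 (507), and Rab3b (216) entered the leading 10. The lowest were Syt6 in CamK (0.152), Syt2 in Grik (0.259) and Cplx3 in SST (0.328). The ranks depended on the length used. With the longest transcript in place of all exonic bases, a setting chosen after seeing the data, Vamp2 (865 CPM per kb), Snap25 (675) and Nsf (581) led in CamK, Snap25 (1083), Nsf (938) and Vamp2 (809) in Grik and Cplx1 (1182), Vamp2 (847) and Rab3a (738) in SST. Summed over the 51 genes, WT levels per kb of exon were 4152 ± 113 in CamK, 5559 ± 112 in Grik and 5322 ± 98.3 in SST (SD, n = 4 each), with every CamK library below every Grik and SST library.

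Among the 10 calcium sensors, 9 differed between CamK and Grik (5 higher, 4 lower in CamK), 9 between CamK and SST (6 higher, 3 lower) and 8 between Grik and SST (6 higher, 2 lower in Grik), beside 42.0%, 60.1% and 57.3% of all genes. With the non-neuronal covariate 4 passed between CamK and Grik. Syt1, the fast calcium sensor of forebrain synapses, was lower in CamK, at 1148 ± 54.9 CPM in CamK, 1637 ± 134 CPM in Grik and 1775 ± 196 CPM in SST (mean ± SD, n = 4 each), and made up 97.3% ± 0.191 of the reads per kb of the fast isoforms Syt1, Syt2 and Syt9 in CamK, 99.0% ± 0.0463 in Grik and 96.1% ± 0.109 in SST. Its paralog Syt2, known from fast-spiking inhibitory synapses, read 15.4, 11.7, 17.4 and 19.3 CPM in CamK, 1.37, 1.74, 1.76 and 3.02 CPM in Grik and 53.4, 72.7, 62.2 and 61.8 CPM in SST. No library of one population overlapped another, and the log2 fold change of Grik against SST was -4.98 ± 0.27 (adjusted p = 1.41e-12). Syt9, the remaining fast isoform, was the reverse: it read 6.48, 8.07, 6.64 and 6.40 CPM in CamK, 6.88, 6.58, 7.05 and 6.48 CPM in Grik and 1.52, 1.59, 1.88 and 2.13 CPM in SST. The pyramidal groups overlapped and every SST library lay below them, with a log2 fold change of 1.95 ± 0.18 (adjusted p = 1.31e-09) for CamK against SST.

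Doc2b, a high-affinity calcium sensor linked to spontaneous release, read 336, 299, 386 and 317 CPM in CamK, 67.6, 70.0, 65.4 and 73.4 CPM in Grik and 24.6, 26.0, 22.98 and 29.8 CPM in SST. CamK stood above Grik by 2.28 ± 0.14 (adjusted p = 5.46e-12) and above SST by 3.69 ± 0.15 (adjusted p = 5.53e-16) on the log2 scale. The highest CamK value of Doc2b was in CamK WT 4, where the dentate markers were lowest, and their part in these values was not tested. Its paralog Doc2a kept the same order over a smaller range, at 38.7 ± 3.003 CPM in CamK, 28.1 ± 1.98 CPM in Grik and 23.6 ± 1.54 CPM in SST. Doc2b made up 84.7% ± 1.86 of Doc2 reads per kb in CamK, 61.3% ± 1.45 in Grik and 41.3% ± 2.63 in SST. Syt5 followed the same order, reading 122, 127, 143 and 157 CPM in CamK, 65.8, 73.2, 89.0 and 94.4 CPM in Grik and 44.0, 45.0, 39.1 and 62.5 CPM in SST, with a log2 fold change of 1.53 ± 0.13 (adjusted p = 3.67e-10) between CamK and SST. Syt10, which acts in growth factor release in some neurons, read 5.55, 5.50, 2.67 and 4.67 CPM in CamK, 2.31, 2.32, 3.35 and 2.17 CPM in Grik and 0.737, 0.776, 0.914 and 0.866 CPM in SST. All SST libraries were under 1 CPM and the pyramidal groups overlapped, and CamK exceeded SST by 2.48 ± 0.22 (adjusted p = 5.28e-10). Syt6 was scarce everywhere and higher in Grik than in CamK and in SST than in Grik, reading 0.792, 1.19, 0.429 and 1.13 CPM in CamK, 2.90, 2.76, 2.74 and 2.33 CPM in Grik and 4.80, 4.42, 4.99 and 7.37 CPM in SST. CamK against SST was -2.61 ± 0.29 (adjusted p = 4.00e-08). Syt7, the slow high-affinity sensor of asynchronous release and facilitation, averaged 220.0 ± 20.7 CPM in CamK, 253 ± 19.1 CPM in Grik and 146 ± 7.47 CPM in SST and was lower in SST than in either pyramidal population (0.80 ± 0.08 (adjusted p = 5.16e-09) for Grik against SST). Syt3 passed between CamK and Grik, at -0.41 ± 0.11 (adjusted p = 0.00307), with overlapping libraries.

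Of the 6 other synaptotagmins, several of which do not bind calcium, 4 passed in each WT comparison, beside 42.0% of all genes for CamK against Grik and the closer shares of 60.1% and 57.3% for the comparisons with SST. Syt17, a Golgi-associated member, read 95.7, 86.2, 78.6 and 88.9 CPM in CamK, 56.0, 62.3, 65.9 and 65.0 CPM in Grik and 25.9, 32.6, 31.1 and 27.1 CPM in SST. The 3 populations did not overlap, and CamK stood above SST by 1.58 ± 0.08 (adjusted p = 2.70e-14). Syt12, a vesicle member linked to spontaneous release, read 36.6, 37.0, 48.1 and 47.8 CPM in CamK, 37.2, 41.3, 48.3 and 42.0 CPM in Grik and 13.4, 15.3, 13.3 and 15.5 CPM in SST. SST was apart from both pyramidal groups, at 1.55 ± 0.13 (adjusted p = 1.17e-10) for Grik against SST. Syt16 was high in CamK alone, reading 93.1, 95.8, 114 and 107 CPM in CamK, 44.7, 43.3, 46.3 and 52.7 CPM in Grik and 39.9, 40.9, 43.9 and 46.2 CPM in SST. It exceeded Grik by 1.13 ± 0.08 (adjusted p = 2.00e-11), while Grik and SST overlapped (0.13 ± 0.08 (adjusted p = 0.155)). Syt11, a calcium-independent regulator of endocytosis, and Syt13 were highest in Grik, at means of 736 and 328 CPM, with the Syt13 difference from SST at 0.22 ± 0.09 (adjusted p = 0.0428) and not past the threshold without Grik WT 5, Grik WT 6, SST WT 1, SST WT 3 or SST WT 5 (0.15 to 0.22), with limma-voom (0.16, adjusted p = 0.0844) or with the filter at 1 CPM (0.19, adjusted p = 0.0699), and Syt4 lay within 106 to 152 CPM in all 12 WT libraries.

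Among SNAREs and SNARE regulators, the complexins showed the clearest exchange of paralogs. Cplx1 read 613, 546, 504 and 629 CPM in CamK, 888, 918, 1007 and 1014 CPM in Grik and 2701, 2678, 2563 and 2409 CPM in SST. Each population was apart from the others, and SST exceeded CamK 4.52-fold (log2 fold change of CamK against SST -2.18 ± 0.10 (adjusted p = 2.05e-15)). Cplx2 ran the other way, reading 2207, 1998, 1897 and 2063 CPM in CamK, 2996, 3119, 3189 and 2805 CPM in Grik and 1137, 1063, 1154 and 1067 CPM in SST. Every SST library was below every pyramidal library, with 1.45 ± 0.09 (adjusted p = 4.87e-13) for Grik against SST. Cplx1 therefore made up 84.0% ± 0.760 of complexin reads per kb in SST, against 38.5% ± 1.39 in CamK and 41.5% ± 2.31 in Grik, with no overlap between SST and the pyramidal libraries. Cplx3, best known from ribbon synapses, read 10.5, 12.4, 7.68 and 12.7 CPM in CamK, 0.893, 2.84, 2.09 and 4.39 CPM in Grik and 0.351, 0.648, 0.376 and 2.497 CPM in SST. It was higher in CamK than in SST by 3.49 ± 0.63 (adjusted p = 8.82e-05), and by 4.57 (adjusted p = 2.35e-06) without SST WT 5, which held the highest SST value. Grik against SST went from 1.40 ± 0.61 (adjusted p = 0.0555) to 2.48 (adjusted p = 0.00101) without that library. Cplx3 made up 0.538% ± 0.101 of complexin reads per kb in CamK WT.

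Syntaxin-1A (Stx1a), the plasma membrane SNARE, read 208, 256, 254 and 266 CPM in CamK, 210.2, 239, 250.3 and 264 CPM in Grik and 75.2, 68.8, 75.1 and 67.5 CPM in SST. The pyramidal groups overlapped, and SST lay below both, by 1.78 ± 0.10 (adjusted p = 6.79e-14) against CamK and 1.75 ± 0.10 (adjusted p = 7.75e-14) against Grik. Its partner Snap25 was instead highest in Grik, at 3293 ± 114 CPM in CamK, 5285 ± 505 CPM in Grik and 3445 ± 82.8 CPM in SST. Grik exceeded SST by 0.62 ± 0.07 (adjusted p = 7.56e-08). The vesicular SNARE Vamp2 did not pass in any comparison and averaged 1908 ± 189 CPM in CamK, 1784 ± 147 CPM in Grik and 1867 ± 121 CPM in SST, while its paralog Vamp1 read 124, 123, 149.9 and 154 CPM in CamK, 234, 214, 233 and 211 CPM in Grik and 421, 400.2, 394 and 366 CPM in SST. Vamp1 was highest in SST, with CamK against SST at -1.52 ± 0.09 (adjusted p = 3.68e-13), and its share of Vamp1 and Vamp2 reads per kb was 2.63% ± 0.0831 in CamK, 4.49% ± 0.450 in Grik and 7.37% ± 0.697 in SST. Nsf, the ATPase that takes spent SNARE complexes apart, read 2229, 2227, 2156 and 2139 CPM in CamK, 3585, 3591, 3431 and 3518 CPM in Grik and 1639, 1785, 1802 and 1779 CPM in SST. Grik was above both others, by 1.01 ± 0.07 (adjusted p = 1.65e-12) against SST. The tomosyns Stxbp5 and Stxbp5l, which hold syntaxin back from release, were higher in Grik than in SST by 0.42 ± 0.10 (adjusted p = 7.60e-04) and 0.60 ± 0.17 (adjusted p = 0.00493), and neither passed between CamK and SST. The Stxbp5l difference between CamK and Grik (-0.52 ± 0.17 (adjusted p = 0.019)) did not pass without CamK WT 4, CamK WT 5 or Grik WT 3, where the log2 fold change was -0.49, -0.38 and -0.42.

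Munc13-1 (Unc13a), the main priming factor, was even in CamK and Grik and lower in SST, at 389 ± 28.9 CPM in CamK, 389.9 ± 33.4 CPM in Grik and 279 ± 42.7 CPM in SST. Unc13a made up 91.2% ± 1.07, 93.0% ± 0.217 and 84.9% ± 4.33 of Munc13 reads per kb in CamK, Grik and SST. Unc13b, which primes a minority of hippocampal synapses, was higher in SST, at 109.5, 62.4, 43.4 and 53.9 CPM against 35.6 to 42.4 in CamK and 32.7 to 45.6 in Grik. SST WT 1 held the highest value, and without it the difference of Grik against SST moved from -0.72 to -0.39 (adjusted p = 0.0122) and that of CamK against SST from -0.80 to -0.46 (adjusted p = 0.00318). Unc13c, known mainly from the cerebellum, read 11.9, 11.6, 8.69 and 12.2 CPM in CamK, 4.15, 5.94, 3.90 and 4.49 CPM in Grik and 6.43, 6.56, 8.97 and 10.4 CPM in SST. Its CamK libraries were above all Grik libraries (1.26 ± 0.18 (adjusted p = 4.31e-06)) and overlapped SST.

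Of the 11 active zone scaffolds, 10 passed in each WT comparison, beside 42.0%, 60.1% and 57.3% of all genes. The short RIM paralogs Rims3 and Rims4, which lack the Rab3-binding and PDZ domains of full-length RIM, were highest in SST and lowest in Grik. Rims3 (chr4:120854816-120896579, plus strand, GRCm38) read 98.5, 102, 114 and 113 CPM in CamK, 5.29, 10.6, 8.20 and 14.6 CPM in Grik and 488, 427, 498 and 430.1 CPM in SST. The populations were far apart: the log2 fold change was -5.57 ± 0.27 (adjusted p = 5.21e-13) for Grik against SST, -2.11 ± 0.23 (adjusted p = 1.41e-07) for CamK against SST and 3.47 ± 0.25 (adjusted p = 8.64e-10) for CamK against Grik. Rims4 kept the same order, reading 104, 106, 99.6 and 95.0 CPM in CamK, 44.9, 47.9, 51.2 and 59.6 CPM in Grik and 224, 221, 227 and 212 CPM in SST. Grik against SST was -2.12 ± 0.08 (adjusted p = 2.96e-17). Rims3 took 56.4% ± 1.47 of short RIM reads per kb in SST, 39.7% ± 2.79 in CamK and 10.3% ± 2.90 in Grik. The full-length RIMs that recruit calcium channels moved less: Rims1 averaged 144 ± 12.4 CPM in CamK, 253 ± 30.9 CPM in Grik and 180.2 ± 11.8 CPM in SST, and Rims2 63.2 ± 2.29 CPM in CamK, 59.1 ± 3.30 CPM in Grik and 77.0 ± 2.45 CPM in SST. Rims1 held 85.7% ± 0.910 of long RIM reads per kb in Grik against 76.2% ± 1.40 in CamK.

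Several other scaffolds were highest in Grik. Bassoon (Bsn), a very large organizer of the active zone, read 184, 183, 169 and 169.6 CPM in CamK, 365, 388, 421 and 379 CPM in Grik and 161, 243, 193 and 225 CPM in SST. Grik exceeded both others without overlap, by 2.20-fold over CamK (-1.14 ± 0.10 (adjusted p = 8.99e-10)) and 1.89-fold over SST. Piccolo (Pclo) averaged 74.5 ± 2.11 CPM in CamK, 136 ± 10.9 CPM in Grik and 109 ± 25.6 CPM in SST and also exceeded CamK in Grik (-0.87 ± 0.14 (adjusted p = 2.14e-05)). That difference was -0.43 (adjusted p = 0.196) with the mean log2 CPM of the non-neuronal markers as a covariate. Grik and SST overlapped for Pclo (0.32 ± 0.14 (adjusted p = 0.0519)). The latter passed with DESeq2 (0.32, adjusted p = 0.0419), after thinning (0.32, adjusted p = 0.049), with the covariate (0.34, adjusted p = 0.0242) and without Grik WT 4, Grik WT 6, SST WT 2 or SST WT 5 (0.36 to 0.45). ELKS2 (Erc2) read 298, 292, 238 and 256 CPM in CamK, 616, 592, 544 and 459 CPM in Grik and 174, 185, 202 and 166 CPM in SST. The 3 populations did not overlap, with 1.60 ± 0.09 (adjusted p = 1.11e-13) for Grik against SST, and Erc2 made up 85.2% ± 0.785 of ELKS reads per kb in Grik against 68.4% ± 1.05 in SST. RIM-binding protein 2 (Rimbp2) read 212, 213, 189 and 196 CPM in CamK, 270.1, 299, 255 and 213 CPM in Grik and 95.7, 94.5, 100.3 and 76.1 CPM in SST. Every SST library was below every pyramidal library (1.5 ± 0.09 (adjusted p = 2.59e-13) for Grik against SST). Liprin-alpha-2 (Ppfia2) read 227, 221, 175 and 183 CPM in CamK, 306, 297, 279 and 227 CPM in Grik and 104, 108, 119 and 109.8 CPM in SST. It followed the same order, at 1.33 ± 0.09 (adjusted p = 6.94e-12), and Ppfia3 did so over a smaller range (0.95 ± 0.08 (adjusted p = 3.35e-10)). Erc1 was lower in CamK than in Grik (-0.66 ± 0.08 (adjusted p = 1.31e-07)). Its difference between Grik and SST was small (0.18 ± 0.07 (adjusted p = 0.0396), overlapping) and did not pass without Grik WT 3, Grik WT 4, SST WT 1, SST WT 2 or SST WT 5 (0.15 to 0.19), nor with no filter on low counts (0.19, adjusted p = 0.0556) or the filter at 1 CPM (0.15, adjusted p = 0.0754).

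Rab3 GTPases, which carry vesicles to RIM, were all highest in SST. Rab3b (chr4:108879063-108943324, plus strand, GRCm38) had the largest difference of the 51 genes, reading 28.7, 43.7, 38.6 and 60.1 CPM in CamK, 7.88, 9.51, 9.13 and 11.6 CPM in Grik and 801, 768, 688 and 787 CPM in SST. The log2 fold change was -6.32 ± 0.23 (adjusted p = 1.00e-15) for Grik against SST and -4.15 ± 0.20 (adjusted p = 1.92e-13) for CamK against SST, and CamK stood above Grik by 2.17 ± 0.19 (adjusted p = 9.84e-09). Rab3b took 24.8% ± 1.09 of Rab3 reads per kb in SST, 2.56% ± 0.699 in CamK and 0.566% ± 0.0684 in Grik, where Rab3a held 87.4% ± 1.72. Rab3c read 834, 913, 921 and 757 CPM in CamK, 782, 684, 668 and 611 CPM in Grik and 1502, 1612, 1804 and 1669 CPM in SST. SST was apart from both pyramidal groups, with CamK against SST at -0.94 ± 0.09 (adjusted p = 1.99e-09) and Grik against SST at -1.26 ± 0.09 (adjusted p = 9.57e-12). Rab3a, the major isoform, averaged 864 ± 75.5 CPM in CamK, 929 ± 67.3 CPM in Grik and 1149 ± 67.1 CPM in SST and differed less (-0.41 ± 0.07 (adjusted p = 2.90e-05) for CamK against SST). Rabphilin (Rph3a), a Rab3 effector, read 362, 337, 302 and 336 CPM in CamK, 611, 595, 598 and 521 CPM in Grik and 839, 878, 849 and 655 CPM in SST. CamK was lowest, SST highest and Grik between, with no overlap (-1.27 ± 0.11 (adjusted p = 1.63e-10) for CamK against SST).

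The level of SST-high genes in the pyramidal populations can be set beside that of 7 GABA neuron markers (Gad1, Gad2, Slc32a1, Sst, Lhx6, Elfn1 and Npy). CamK WT held these markers at 0.133% to 3.10% of their SST WT level, with a median of 1.23%, against 5.62% for Rab3b, 23.2% for Rims3 and 25.5% for Syt2. All 3 genes lay above all 7 markers there. In Grik WT the markers were at 0.302% (Lhx6) to 1.89% (Gad1), with a median of 0.693%. Rab3b, at 1.25%, lay above 6 of the 7, and Rims3 (2.10%) and Syt2 (3.16%) above all 7.

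Promoter sequence is shown for 4 genes whose levels differed in opposite directions: Rab3b (chr4:108878820-108879069) and Rims3 (chr4:120854549-120854798), highest in SST and lowest in Grik, and Stx1a (chr5:135023232-135023481) and Erc2 (chr14:27622157-27622406), lowest in SST. The 250 bases before the RefSeq transcription start are given 5′ to 3′ on the plus strand of GRCm38.p6, with matches to the GC box in capitals.
Rab3b: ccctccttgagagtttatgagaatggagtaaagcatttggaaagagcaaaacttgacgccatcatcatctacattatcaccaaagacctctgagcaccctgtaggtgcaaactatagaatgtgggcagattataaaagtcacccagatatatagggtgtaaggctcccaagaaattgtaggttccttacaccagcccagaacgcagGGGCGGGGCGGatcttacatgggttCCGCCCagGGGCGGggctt
Rims3: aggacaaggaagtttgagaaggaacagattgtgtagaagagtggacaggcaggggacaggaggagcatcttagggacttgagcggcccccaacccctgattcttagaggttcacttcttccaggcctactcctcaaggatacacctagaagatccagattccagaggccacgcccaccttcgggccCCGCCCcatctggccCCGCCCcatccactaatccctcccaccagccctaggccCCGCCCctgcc
Stx1a: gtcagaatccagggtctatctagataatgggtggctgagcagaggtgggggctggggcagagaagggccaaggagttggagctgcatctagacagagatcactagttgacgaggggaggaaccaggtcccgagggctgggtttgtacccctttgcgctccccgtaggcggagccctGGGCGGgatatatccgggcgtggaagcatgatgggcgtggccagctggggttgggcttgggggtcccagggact
Erc2: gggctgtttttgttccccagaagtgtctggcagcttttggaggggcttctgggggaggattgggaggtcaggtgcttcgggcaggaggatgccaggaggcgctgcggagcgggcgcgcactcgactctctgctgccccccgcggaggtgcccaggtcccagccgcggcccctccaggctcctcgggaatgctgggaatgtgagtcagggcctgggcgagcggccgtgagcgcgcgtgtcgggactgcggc
The GC box searched was GGGCGG on both strands, and Rab3b had 4 matches (a pair of them overlapping), Rims3 3, Stx1a 1 and Erc2 0. RefSeq windows were matched for 38 of the 51 genes, giving 49 windows. A GC box was present in 32 of the 49 (65.3%), beside 32.7% of all 32851 RefSeq windows of this length. The cyclic AMP response element TGACGTCA was in 1 of 49 (2.04%, beside 1.55% of all windows) and an E box CANNTG in 36 (73.5%, beside 66.2%). Of the 4 sequences shown each held 1 E box and no cyclic AMP response element. A match is a description of letters and says nothing about binding.

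**Figure D2:**
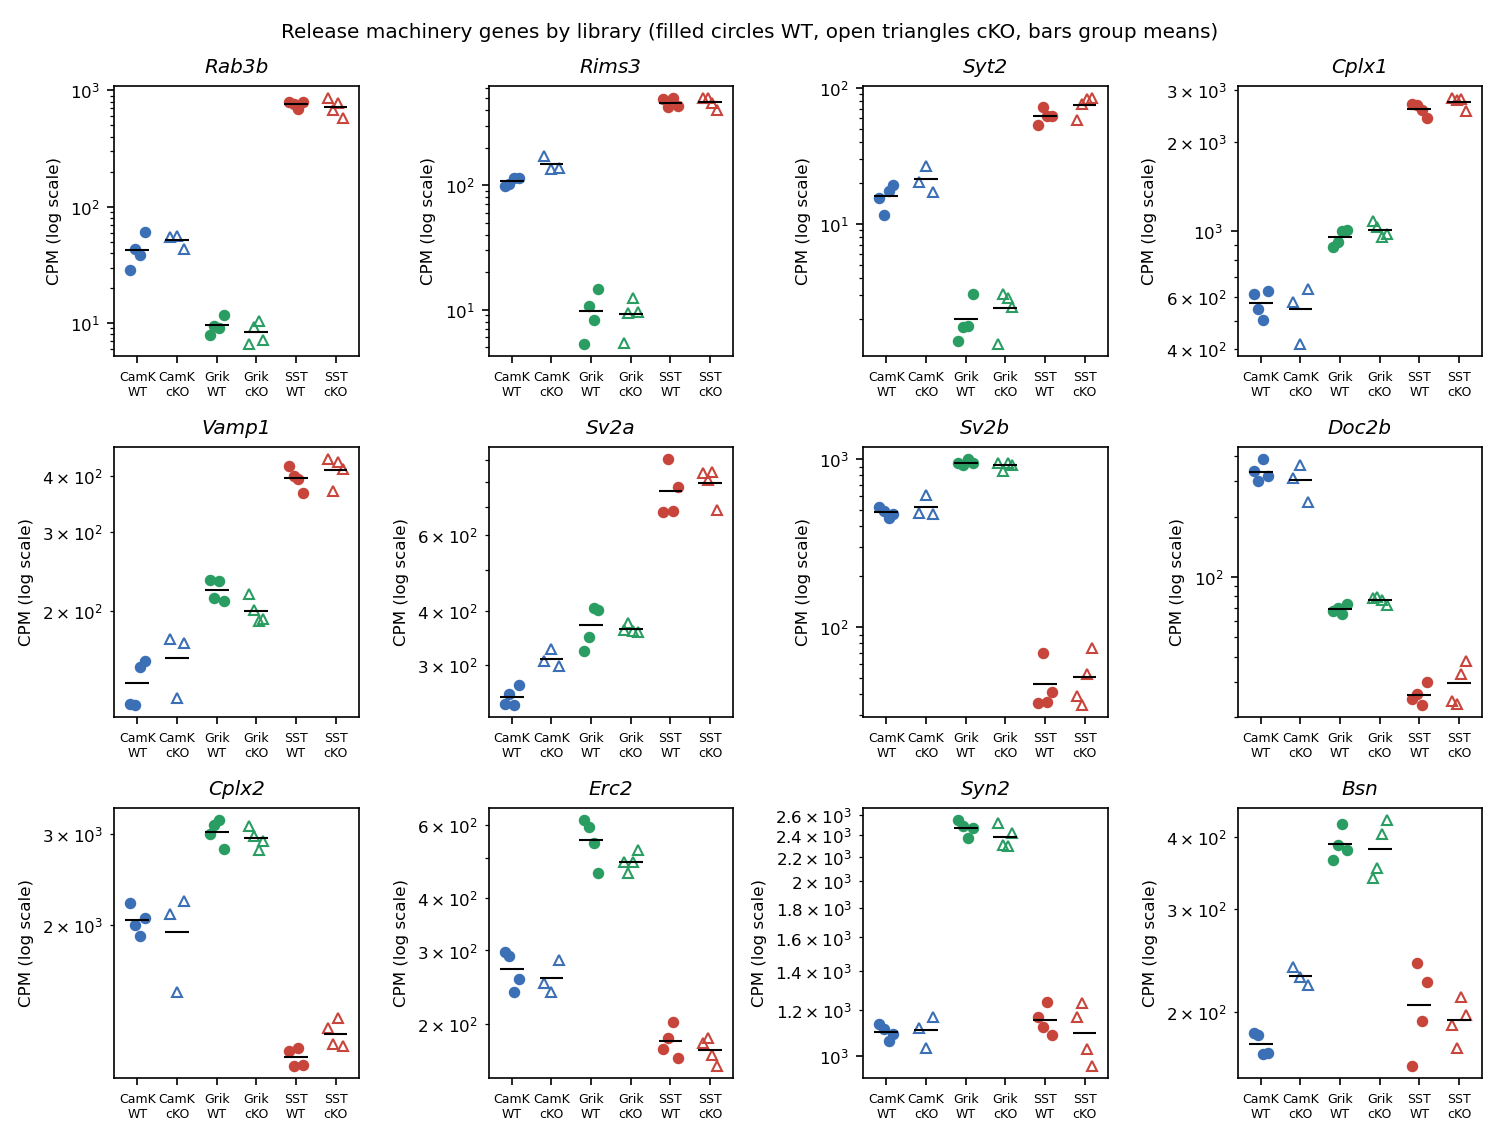
CPM (log axis) of 12 of the 51 genes in each of the 23 libraries, by population and genotype; filled circles are WT, open triangles cKO and black bars group means. In Rab3b, Rims3, Syt2, Cplx1, Vamp1 and Sv2a all SST libraries lie above all pyramidal libraries, and in Sv2b, Doc2b and Cplx2 all lie below.

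Among the 7 vesicle proteins, SV2 isoforms were exchanged between interneurons and pyramidal cells. SV2 proteins are membrane glycoproteins of synaptic vesicles needed for normal calcium-evoked release. Sv2b read 515, 492, 445 and 471 CPM in CamK, 944, 925, 996 and 942 CPM in Grik and 35.4, 70.2, 35.9 and 41.2 CPM in SST. Every SST library was below every pyramidal library, and Grik against SST was 4.38 ± 0.23 (adjusted p = 1.56e-12). Sv2a ran the other way, reading 244, 257, 242 and 270.2 CPM in CamK, 324, 349, 406 and 404 CPM in Grik and 679, 901, 685 and 777 CPM in SST. SST exceeded CamK 3.004-fold (-1.59 ± 0.09 (adjusted p = 7.60e-14)). Sv2b took 50.1% ± 1.72 of SV2 reads per kb in CamK, 58.5% ± 2.31 in Grik and 3.12% ± 0.660 in SST. Its SST level was 4.80% of that in Grik, beside 3.11% for Neurod6, 5.32% for Slc17a7, 6.03% for Tbr1, 6.69% for Neurod2 and 15.9% for Camk2a, which are excitatory markers. SST WT 2 had both the highest Sv2b and the highest Slc17a7 of its group (121 CPM, against 67.7 to 72.9 in the other SST WT libraries). Among GABA markers it had the lowest Sst of its group (159 CPM) but the highest Gad1 (3087 CPM). Grik also exceeded CamK for Sv2b (-0.99 ± 0.21 (adjusted p = 6.18e-04)), but with the non-neuronal markers as a covariate, whose summed levels separate these 2 populations, the log2 fold change was -0.02 (adjusted p = 0.966). Sv2c read 30.6, 27.9, 18.8 and 17.6 CPM in CamK, 9.33, 9.25, 9.23 and 8.80 CPM in Grik and 14.5, 11.4, 13.9 and 33.5 CPM in SST. SST WT 5 was apart from its group, and without it the difference of Grik against SST went from -1.0 ± 0.31 (adjusted p = 0.00968) to -0.54 (adjusted p = 0.0723), and that of CamK against SST from 0.37 (adjusted p = 0.307) to 0.84 (adjusted p = 0.00746).

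Synapsins, phosphoproteins that hold vesicles in the reserve pool, differed by isoform. Syn2 read 1135, 1111, 1059.6 and 1090.2 CPM in CamK, 2548, 2495, 2373 and 2467 CPM in Grik and 1169, 1123, 1238 and 1085 CPM in SST. Grik exceeded CamK by 2.25-fold (-1.17 ± 0.07 (adjusted p = 1.61e-12)) and SST by 2.14-fold, while CamK and SST overlapped. Syn2 rose to 46.8% ± 1.35 of synapsin reads per kb in Grik from 34.6% ± 1.69 in CamK. Syn3, the least abundant synapsin, read 22.0, 22.96, 20.5 and 18.04 CPM in CamK, 8.89, 9.72, 8.13 and 7.17 CPM in Grik and 10.7, 10.3, 11.5 and 10.9 CPM in SST. CamK was highest, at 1.3 ± 0.10 (adjusted p = 7.33e-11) against Grik. Syn1 averaged 972 ± 48.3 CPM in CamK, 1318 ± 44.4 CPM in Grik and 856 ± 35.8 CPM in SST, and synaptophysin (Syp), an integral vesicle protein, 1153 ± 119 CPM in CamK, 1464 ± 203 CPM in Grik and 1137 ± 138 CPM in SST. Both were higher in Grik than in SST (0.62 ± 0.08 (adjusted p = 1.08e-07) and 0.36 ± 0.09 (adjusted p = 0.0019)).

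**Figure D3:**
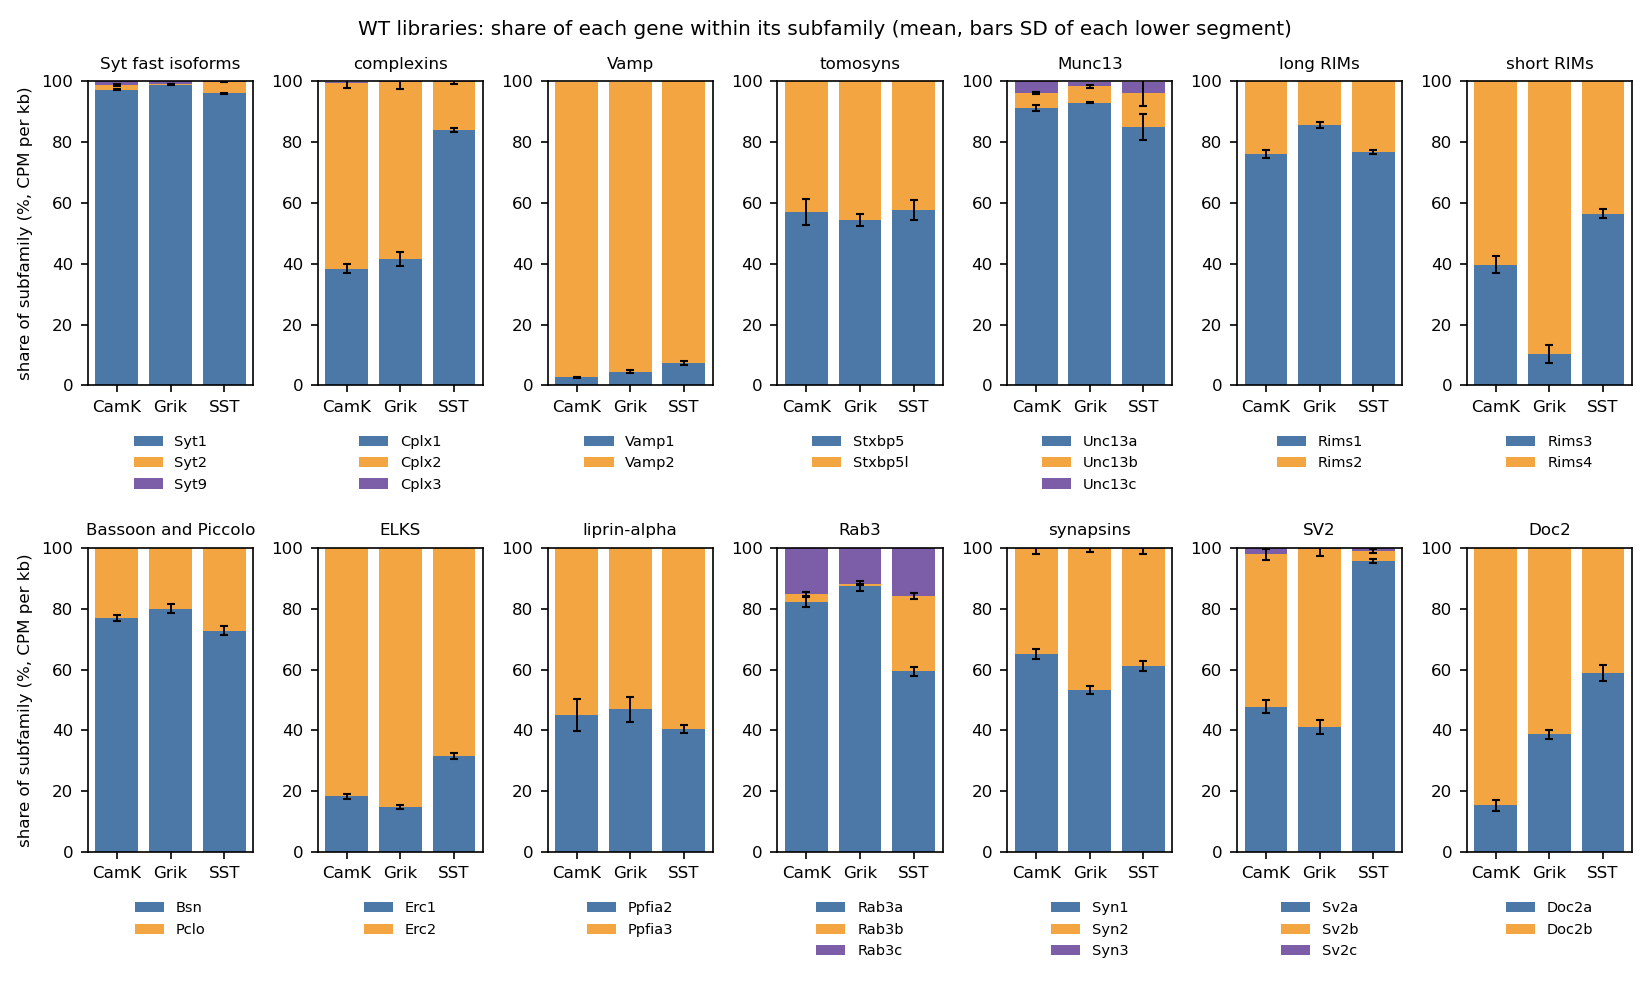
Share of each gene among the reads per kb of its subfamily in the WT libraries, as stacked means of 4 libraries per population with SD bars on the lower segments. Cplx1 is 84.0% of complexins and Sv2a 95.8% of SV2 in SST, Rab3b is 24.8% of Rab3 there, and Rims4 is 89.7% of short RIMs in Grik.

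In all, 30 of the 51 genes passed at 2-fold or more in at least 1 WT comparison, beside 37.3% of all genes, and the largest absolute log2 fold change among the other 21 was 0.95. The test passed over both other populations for the highest group of 41 genes: 9 with the highest level in CamK, 19 in Grik and 13 in SST. Over all genes the share was 42.8% (11.2% with the highest level in CamK, 10.6% in Grik and 21.03% in SST). The libraries labelled cKO repeated the comparison with other samples. There 35, 42 and 41 of the 51 genes passed between CamK and Grik, CamK and SST, and Grik and SST, beside 35.7%, 56.4% and 57.9% of all genes. Of the genes that passed in WT, 35 of 42, 38 of 40 and 39 of 44 also passed in cKO, all of them in the same direction (83.3%, 95.0% and 88.6%, beside 69.2%, 81.5% and 88.3% of all genes that passed in WT). For Grik against SST the members' share was that of all genes. Of the genes that passed in both, the one with the largest WT difference was Rims3 for CamK against Grik (3.47 in WT and 4.004 in cKO), Rab3b for CamK against SST (-4.15 and -3.81) and Rab3b for Grik against SST (-6.32 and -6.44). For CamK against SST the largest shift from WT to cKO among the genes that passed in both genotypes was that of Syt6 (-2.61 in WT and -1.80 in cKO, a shift of 0.81), and over all 51 genes that of Sv2c (0.96 ± 0.45, adjusted p = 0.629 by edgeR's test of the difference of genotype effects). Genes that passed in WT but not in cKO were Syt6, Syt17, Stxbp5, Stxbp5l, Pclo, Ppfia3 and Sv2a for CamK against Grik, Unc13b and Pclo for CamK against SST, and Doc2a, Syt13, Unc13b, Erc1 and Sv2c for Grik against SST. Genes that passed in cKO but not in WT were Syt4, Stxbp5l, Bsn and Sv2c for CamK against SST and Syt4 and Pclo for Grik against SST. That a gene passed in 1 genotype only does not show that the genotypes differ. The tests of that difference are given next.

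**Figure D4:**
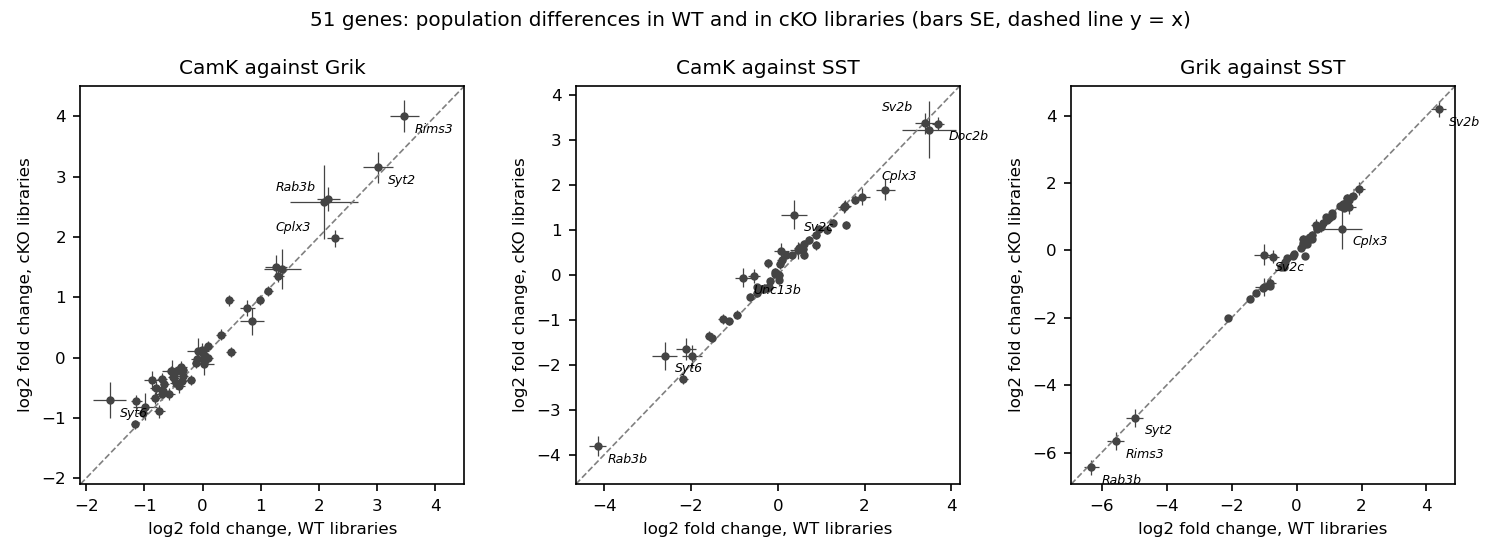
Log2 fold change between populations in the WT libraries (x axis) and in the cKO libraries (y axis) for the 51 genes, with SE bars and a dashed line of equality. The points lie along the line, from -6.32 and -6.44 for Rab3b to 4.38 and 4.19 for Sv2b in Grik against SST.

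Between libraries labelled cKO and WT, none of the 51 genes passed in any population, by edgeR, DESeq2 or limma-voom. Of all genes, 0.0106% passed in each population by edgeR. At an unadjusted p under 0.05 edgeR gave 9 genes in CamK, 2 in Grik and 4 in SST (shares of all genes 7.05%, 4.88% and 5.85%), DESeq2 9, 2 and 4, and limma-voom 12, 7 and 8. The median log2 fold change of cKO against WT was 0.11 in CamK, -0.03 in Grik and 0.04 in SST, beside -0.00, 0.00 and 0.02 over all genes. In CamK 39 of 51 values were above 0 (76.5%, beside 49.5% of all genes), in Grik 21 (41.2%, beside 50.8%, or with the direction of the Grik label exchanged, a setting added after seeing the data, 30, 58.8% beside 49.2%) and in SST 31 (60.8%, beside 56.0%, a like share). The lowest p in CamK belonged to Bsn, at 239, 229.7 and 222 CPM in cKO and 184, 183, 169 and 169.6 in WT. Every cKO library was above every WT library, but the log2 fold change of 0.39 ± 0.10 (adjusted p = 0.421) did not pass. Sv2a was next, at 307, 326 and 298 CPM in cKO and 244, 257, 242 and 270.2 in WT (0.29 ± 0.09 (adjusted p = 0.598)). Doc2a overlapped between genotypes, at 48.4, 40.8 and 49.3 and 34.6, 39.1, 39.2 and 41.8 CPM (0.26 ± 0.09 (adjusted p = 0.611)). In the same comparison 18 of the 20 non-neuronal markers had log2 fold changes above 0, with a median of 0.58 and none past the threshold, and their part in these values was not tested.

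In Grik the lowest p values were those of Doc2a (-0.23 ± 0.08 (adjusted p = 0.893)), Rims4 (0.16 ± 0.07 (adjusted p = 0.992)) and Erc2 (-0.18 ± 0.09 (adjusted p = 0.992)). Doc2a was the lower in every cKO library, at 25.4, 24.6, 22.8 and 23.2 CPM against 25.5, 28.1, 28.6 and 30.2 in WT. In SST they were those of Unc13b (-0.67 ± 0.19 (adjusted p = 0.833)), Syt17 (0.23 ± 0.08 (adjusted p = 0.833)) and Doc2a (0.19 ± 0.08 (adjusted p = 0.833)). Unc13b read 47.9, 32.0, 44.7 and 44.7 CPM in SST cKO, overlapping the WT libraries given above, and without SST WT 1 its log2 fold change was -0.33. In Grik that of Rims4 was 0.10 without Grik WT 3. Of the 20 non-neuronal markers, 18 in Grik (2 with the direction of the Grik label exchanged) and 17 in SST had log2 fold changes above 0. The genotype effects were also compared between populations. None of the 51 differences passed for CamK against Grik, CamK against SST or Grik against SST by edgeR, DESeq2 or limma-voom, beside 0.00531%, 0% and 0.0106% of all genes by edgeR. At an unadjusted p under 0.05 edgeR gave 7, 6 and 1 (shares of all genes 6.50%, 7.85% and 3.86%), DESeq2 7, 7 and 2, and limma-voom 10, 8 and 3. The counts and shares of the comparisons with Grik, adjusted or not, rest on the direction of the Grik label. They were not recomputed with it exchanged. The differences of lowest p were those of Doc2a for CamK against Grik (0.49 ± 0.12 (adjusted p = 0.538)) and Syt17 for CamK against SST (-0.48 ± 0.12 (adjusted p = 0.523)). The Doc2a difference is that between 0.26 in CamK and -0.23 in Grik, so its size rests on the direction of the Grik label, and with that direction exchanged it would be 0.026.

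**Figure D5:**
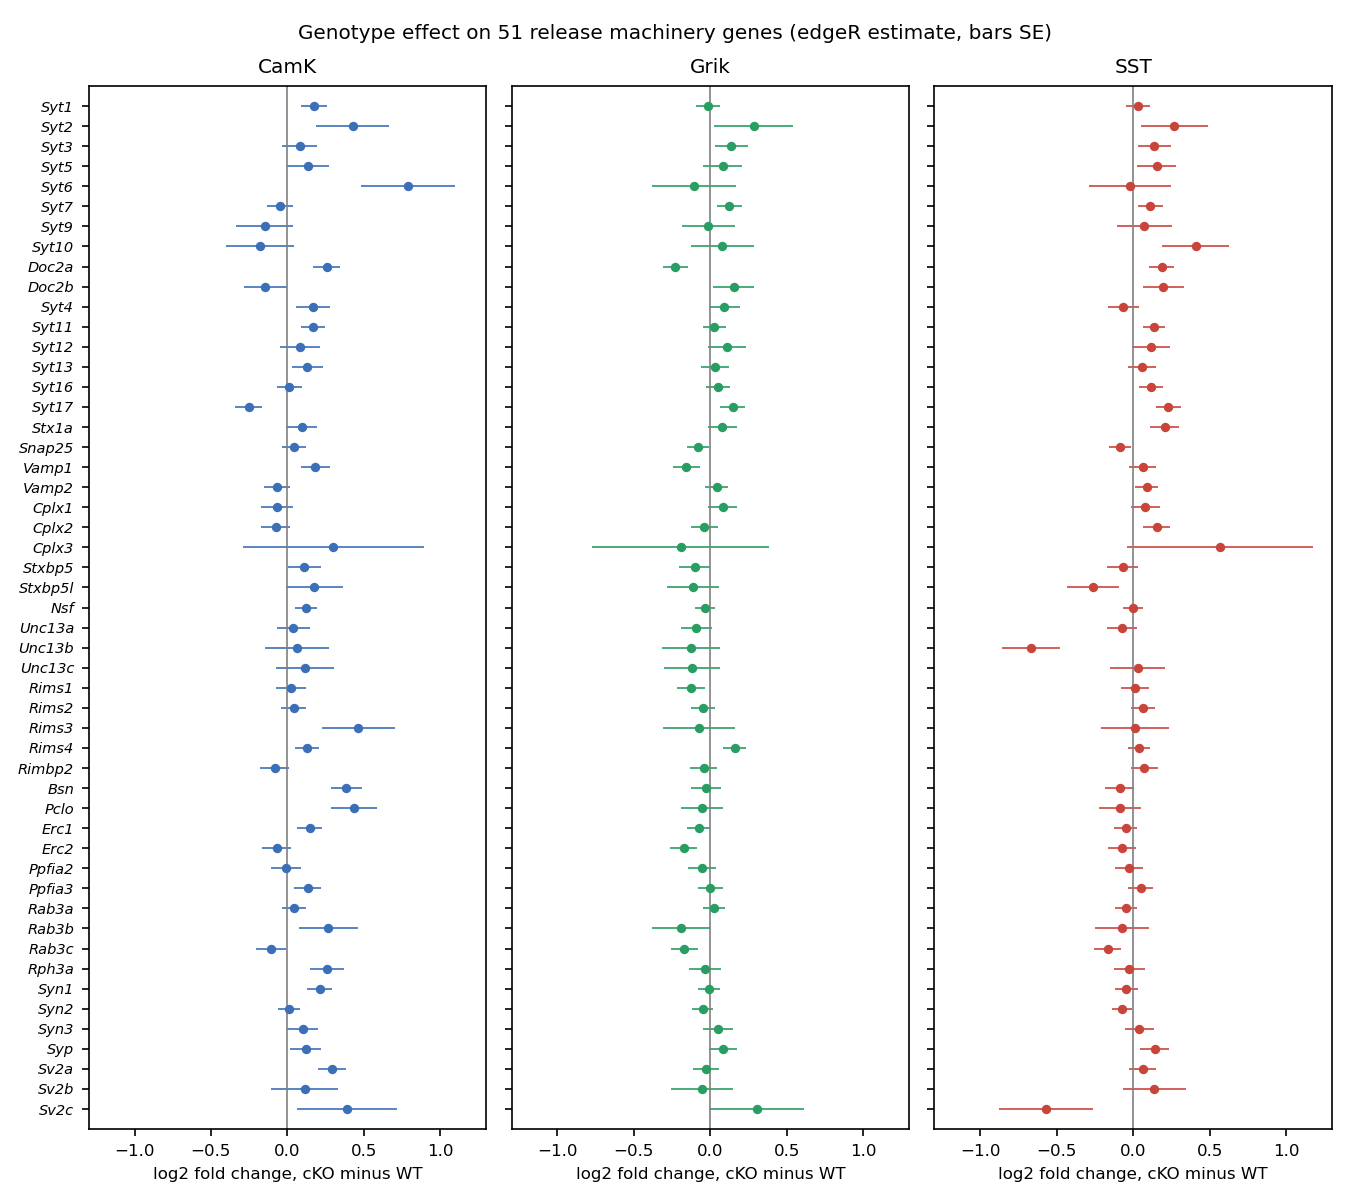
Log2 fold change of cKO against WT (x axis) for the 51 genes in each population, with SE bars and a grey line at 0. None passed the threshold, and the points scatter within 0.79 of 0, with wide bars for the scarce genes Cplx3 and Syt6.

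A list of 40 further genes of the vesicle cycle gave the wider context, of which 39 were matched and tested. Between WT CamK and Grik 30 of 39 passed (8 higher and 22 lower in CamK), between CamK and SST 24 (9 and 15) and between Grik and SST 31 (16 and 15), beside 42.0%, 60.1% and 57.3% of all genes. The count between CamK and SST was thus near the share of all genes. Gamma-synuclein (Sncg) was lower in CamK than in Grik (-3.99 ± 0.51 (adjusted p = 1.14e-06)) and than in SST (-5.66 ± 0.51 (adjusted p = 1.72e-09)). Cadps2, a dense-core vesicle priming factor, was higher in CamK than in Grik (1.73 ± 0.12 (adjusted p = 2.12e-11)) and in SST (3.18 ± 0.13 (adjusted p = 1.92e-16)), while its paralog Cadps was lower in CamK than in Grik (-1.17 ± 0.12 (adjusted p = 5.31e-08)). Rimbp3 had the order of Cadps2 (2.61 ± 0.23 (adjusted p = 3.74e-10) for CamK against SST). Dynamin-3 (Dnm3), of the endocytic fission family, was higher in SST, with log2 fold changes of -2.82 ± 0.13 (adjusted p = 8.65e-15) for CamK against SST and -2.33 ± 0.13 (adjusted p = 1.55e-13) for Grik against SST. Synaptoporin (Synpr) was higher in SST than in CamK (-2.17 ± 0.19 (adjusted p = 2.30e-09)), and Rab27b, a secretory Rab, higher in SST than in Grik (-1.77 ± 0.09 (adjusted p = 1.44e-14)). Endophilin A1 (Sh3gl2), which acts in vesicle endocytosis, was higher in Grik than in SST (1.78 ± 0.05 (adjusted p = 1.55e-18)), and its partner amphiphysin (Amph) higher in Grik than in CamK (-1.09 ± 0.08 (adjusted p = 1.64e-10)). None of the 39 passed between genotypes by edgeR (1, 1 and 2 at an unadjusted p under 0.05 in CamK, Grik and SST).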

How the data were processed

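Polyadenylated RNA of mouse hippocampal neurons was sequenced in 23 libraries. The values are whole-number read counts per Ensembl gene, deposited by the authors in 1 table with 1 column per library. The submitters' processing notes name Trimmomatic, STAR and GRCm38, without versions. The annotation release and strand setting are not given in the sources used here. Reads in the 4 summary categories without a gene (12.4% to 18.4% of reads) were left out. Columns were matched to samples by name.

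Symbols, positions and exon lengths came from GENCODE M21 (45143 of 45706 IDs matched). Exons of 22 of the 51 genes overlap another gene (Doc2a with Ino80e, Syn1 with Araf, Syn2 with Timp4 and Syn3 with Timp3 among them), so their counts are uncertain without the strand. Tests used edgeR 4.0.16 in R 4.3.3: filterByExpr over the 6 groups (18823 genes kept), TMM scaling, glmQLFit with robust estimation over all 23 libraries (17 residual degrees of freedom, common coefficient of variation 16.3%), and Benjamini-Hochberg adjustment at 0.05. The standard error was taken from the log2 fold change and its F statistic. Shares within subfamilies used CPM per kb of exon and have no test. Counts of calls and called differences were recomputed without the filter, with a filter of 1 CPM in 3 libraries, with relative log expression scaling, with DESeq2 1.42.0 and limma-voom (limma 3.58.1), with only the populations compared, with a replicate block or a non-neuronal covariate, after thinning, and without each library in turn.

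Genes past the threshold at 2-fold or more in a WT comparison are given by library, and the rest by ranges and counts. For genotype the 3 lowest p per population are named, and of the further vesicle cycle genes up to 3 higher and 3 lower per WT comparison. The members and lists were chosen with earlier results of these data known. The value of 1 listed excitatory marker is not reported here.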

Additional observations from a re-analysis of the deposited data

Results flagged for a closer look

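In 17 of 255 gene and group values of 4 libraries, 1 library stood apart from the other 3 beyond Dixon's 95% critical value. About 1 in 20 groups does so by chance, or 12.75 of 255. Among WT libraries of CamK, Syt7 was at 189 CPM in replicate 4 (228 to 234 in the others), Unc13c at 8.69 in replicate 4 (11.6 to 12.2), Syt9 at 8.07 in replicate 3 (6.40 to 6.64) and Syt11 at 582 in replicate 5 (506 to 509.8). In Grik WT, Syt10 was at 3.35 in replicate 5 (2.17 to 2.32).

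Among SST WT libraries, Cplx3 was at 2.5 CPM in replicate 5 (0.351 to 0.648), Sv2c at 33.5 in replicate 5 (11.4 to 14.5), Sv2b at 70.2 in replicate 2 (35.4 to 41.2) and Nsf at 1639 in replicate 1 (1779 to 1802). In Grik cKO, replicate 1 was apart for Nsf at 3718 (3322 to 3371), Syn1 at 1434 (1267 to 1269.9) and Syt10 at 2.06 (2.80 to 2.94), and replicate 2 for Syt5 at 93.6 (82.0 to 83.0). In SST cKO, replicate 7 was apart for Syt16 at 51.1 (44.0 to 45.2), Stx1a at 97.6 (76.1 to 79.2) and Cplx1 at 2548 (2775 to 2813), and replicate 5 for Syt11 at 716 (625 to 634). SST cKO 7 also had the highest summed non-neuronal markers of the SST libraries, at 1351 CPM, and the lowest summed GABA markers, at 5918 CPM. Their part in these values was not tested.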

How the results depend on the processing

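The counts of genes past the threshold, over the 51 genes and over the 39 further genes, stayed within 1.5 times their value under each alternative run, with no genotype call. Counts by role in WT, added after seeing the data, did so except with the non-neuronal covariate, where calcium sensors went from 9 to 4 for CamK against Grik and Munc13 genes from 3 to 1 for CamK against SST. Some genotype counts of the 51 at an unadjusted p under 0.05 moved further. In Grik the count went from 2 with edgeR to 7 with limma-voom and 4 with the replicate block. With limma-voom it went from 4 to 8 in SST, and from 1 to 3 for the difference of Grik against SST, but only from 9 to 12 in CamK. Of the called log2 fold changes between populations, 3948 values over genes and alternatives kept direction and side of the threshold, 121 lost the call and 2 reversed. With the non-neuronal score as a covariate, Syt7 in WT CamK against Grik reversed to 0.0868 and Syn1 in WT CamK against SST to -0.132, and 29 calls were lost. The score is the mean log2 CPM of the markers. Their sums separate CamK from Grik and overlap between CamK and SST, but all markers except Slc1a2 were lower in CamK WT than in SST WT. The cause was not tested. Among differences that were not called, 75 values over 18 genes passed under some alternative (25 without 1 library, 16 with limma-voom), Bsn and Syt11 in WT CamK against SST among them. Leaving out 1 library lost 65 calls, mostly of small differences (Syt7, Stxbp5l, Unc13c, Syn1, Syt13 and Erc1 in WT). In cKO the same holds for Syt10, Syn1, Syp, Bsn and Pclo, and without CamK cKO 5 Vamp1 fell to -0.23 against Grik and Syt4 to 0.15 against SST.

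Of 35 pairs of libraries from different groups with the same replicate number, 4 had a correlation of deviations above 0.1 (range -0.0999 to 0.138). Pairs with different numbers were not compared, so these values do not settle whether the numbers pair the libraries. A replicate block lost 13 calls, in WT those of Unc13b (-0.38, adjusted p = 0.0953), Doc2a (0.18, adjusted p = 0.104) and Syt13 (0.21, adjusted p = 0.0745) for Grik against SST, Syt7 (-0.23, adjusted p = 0.0517) for CamK against Grik and Unc13c (0.41, adjusted p = 0.0617) for CamK against SST, and gave no genotype call. It reversed the sign of the Grik genotype effect of Bsn (-0.03 to 0.0495) and Pclo (-0.06 to 0.0410). Leaving out 1 library, the Grik effect ranged from -0.0962 to 0.0201 for Bsn and from -0.156 to 0.0506 for Pclo, and the SST effect of Pclo from -0.22 to 0.0263. The cause was not tested. Relative log expression scaling moved the median of all genes by at most 0.013 (log2). Of 102 subfamily shares, 63 moved by more than 1 SD with the longest transcript as length and 95 with no division by length, and none did so in 408 values without 1 library. Counting error is small at these depths, and scarce genes such as Cplx3 and Syt6 had wide errors.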
